A study of Homo sapiens with 4 samples.

Results

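The SMAD and ID genes of TGF-beta and BMP signalling were followed in RKO cells, a microsatellite-unstable human colorectal carcinoma line, after knockdown of CHD7, a chromodomain helicase that remodels chromatin. The members were the rows with the symbols SMAD1 to SMAD7, ID1, ID2 and ID3 in the table of estimated read counts and in the matching table of FPKM (fragments scaled to transcript length and sequencing depth). All 10 were found among the 15357 genes. RNA-seq of polyadenylated transcripts was performed on 2 samples of RKO cells stably expressing a control shRNA from a lentivirus (vector) and on 2 samples expressing the CHD7 shRNA-2 in the same way (shCHD7_2). Both groups were grown in EMEM with fetal bovine serum, and the labels name no added TGF-beta or BMP ligand. The model is 1 cell line with 1 hairpin against CHD7, and nothing in the labels says that the samples came from separate cultures, so that p-values measure the spread between these samples, which may be technical.

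The libraries held between 15734666 and 16068642 counts, and the samples of 1 group differed by more than counting noise (chi-square per gene of 3.94 in vector and 6.05 in shCHD7_2). CHD7 had 1326 and 1436 counts in vector and 890 and 800 counts in shCHD7_2, a log2 fold change of -0.74 (edgeR's quasi-likelihood test, adjusted p = 4.15e-06). Of 12 markers of colon epithelium, 4 were expressed at a level that could be tested (EPCAM, KRT8, KRT18 and CDX2), while CDH1 and KRT20 were at or near 0 FPKM in the 4 samples. Of the markers of other cell types, 3 of 9 for fibroblasts, 3 of 6 for endothelium and 3 of 7 for leukocytes had values here. Those with values summed to at most 0.13 FPKM for fibroblasts, 0.13 for endothelium and 0.34 for leukocytes in any sample. PECAM1 was listed at 0 in 3 of 4 samples.

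TGF-beta and activin receptors phosphorylate SMAD2 and SMAD3, and BMP receptors phosphorylate SMAD1, SMAD5 and SMAD9. Complexes of these receptor-regulated SMADs with the common partner SMAD4 enter the nucleus, bind DNA and change transcription. SMAD6 and SMAD7 are inhibitory SMADs that act on the receptors and on the receptor-regulated SMADs, and SMAD7 is itself a classic target of the pathway. The ID proteins are helix-loop-helix proteins without a DNA-binding basic region, which hold E proteins away from DNA, and ID1, ID2 and ID3 are textbook targets of BMP signalling. In the colon, BMP signals favour differentiation of the epithelium, and TGF-beta restrains its growth.

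The promoters of the members with the largest estimated changes, ID1, ID3 and SMAD7, and of SMAD6, which held the rarest motif, are printed below from RefSeq (GRCh38.p14), each with 250 bases before and 50 bases after an annotated start site and read 5′ to 3′ on the strand of the gene. Capitals mark matches, on either strand, to CAGAC (the SMAD box), to GTCTAGAC (the palindromic SMAD-binding element) or to GGCGCC (a GC-rich element of SMAD1 and SMAD5). The longer palindrome does not contain CAGAC. All 10 members matched the promoter table, with 21 windows.
ID1, chr20:31605039-31605338, plus strand: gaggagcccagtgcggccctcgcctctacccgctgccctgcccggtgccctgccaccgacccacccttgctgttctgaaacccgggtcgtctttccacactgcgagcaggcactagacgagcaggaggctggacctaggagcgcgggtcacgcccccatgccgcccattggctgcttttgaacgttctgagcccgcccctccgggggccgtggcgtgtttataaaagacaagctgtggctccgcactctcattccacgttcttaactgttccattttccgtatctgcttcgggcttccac
ID3, chr1:23559452-23559751, minus strand: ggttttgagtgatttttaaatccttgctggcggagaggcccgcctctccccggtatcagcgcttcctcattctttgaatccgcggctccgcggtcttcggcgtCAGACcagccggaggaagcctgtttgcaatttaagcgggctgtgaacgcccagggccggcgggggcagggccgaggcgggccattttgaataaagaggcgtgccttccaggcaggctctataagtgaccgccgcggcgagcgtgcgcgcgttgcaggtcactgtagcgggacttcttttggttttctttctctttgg
SMAD7, first of 3 start sites, chr18:48950916-48951215, minus strand: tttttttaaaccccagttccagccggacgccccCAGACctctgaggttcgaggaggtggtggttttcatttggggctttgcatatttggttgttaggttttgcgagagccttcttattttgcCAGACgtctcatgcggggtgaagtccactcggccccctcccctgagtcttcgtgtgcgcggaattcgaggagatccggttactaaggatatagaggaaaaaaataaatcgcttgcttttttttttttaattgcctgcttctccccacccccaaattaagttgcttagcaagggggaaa
SMAD6, chr15:66701986-66702285, plus strand: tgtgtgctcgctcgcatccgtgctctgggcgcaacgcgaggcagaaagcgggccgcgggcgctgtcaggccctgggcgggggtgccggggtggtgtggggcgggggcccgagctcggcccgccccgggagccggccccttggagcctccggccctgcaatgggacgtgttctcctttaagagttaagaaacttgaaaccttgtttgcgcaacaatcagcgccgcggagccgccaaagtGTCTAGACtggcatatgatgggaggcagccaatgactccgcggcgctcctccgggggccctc

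The ID1 window held none of the 3 motifs. The ID3 window held CAGAC with its first base at position -147 relative to the start site, and the SMAD7 window held it at -217 and -128. CAGAC was in 7 of the members' 21 windows and in 45.3% of all 35116 promoter windows of this length. GGCGCC was also in 7 of the 21, all of them windows of SMAD1 to SMAD5, and in 19.2% of all windows. SMAD6 held GTCTAGAC at position -12, a motif found in 0.202% of all windows. A match of letters does not show binding, and a window without a match says only that the letters are not there.

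By FPKM, which is per length and allows genes to be compared, the members fell into a few steps. The order rests on the transcript length assigned to each gene, and the annotation behind these lengths is not given in the sources used here. In vector replicate 1, SMAD2 had 1709 counts and SMAD1 had 461, but their FPKM were 10.69 and 11.98. SMAD5 (mean 12.4, range 10.92 to 13.16 over the 4 samples), SMAD1 (12.02, 11.05 to 13.03), ID3 (10.7, 8.68 to 13.23) and SMAD2 (10.2, 9.65 to 10.69) were the most abundant, and their ranges overlapped. SMAD4 (7.47, 6.9 to 7.84) lay below SMAD2 in every sample and overlapped with ID1 (5.10, 3.72 to 7.13). SMAD7 (2.15, 1.51 to 2.65) and ID2 (1.69, 1.53 to 2.02) overlapped with each other and lay below ID1, and SMAD3 (1.16, 0.97 to 1.37) lay below ID2. SMAD6 was at 0.02 to 0.05 FPKM. Of the receptor-regulated pair of the TGF-beta branch, SMAD2 was thus far more abundant than SMAD3 in every sample. SMAD5 had a higher mean FPKM than 60.3% of all genes in the table, SMAD3 than 29.3% and SMAD6 than 13.8%.

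**Figure D1:**
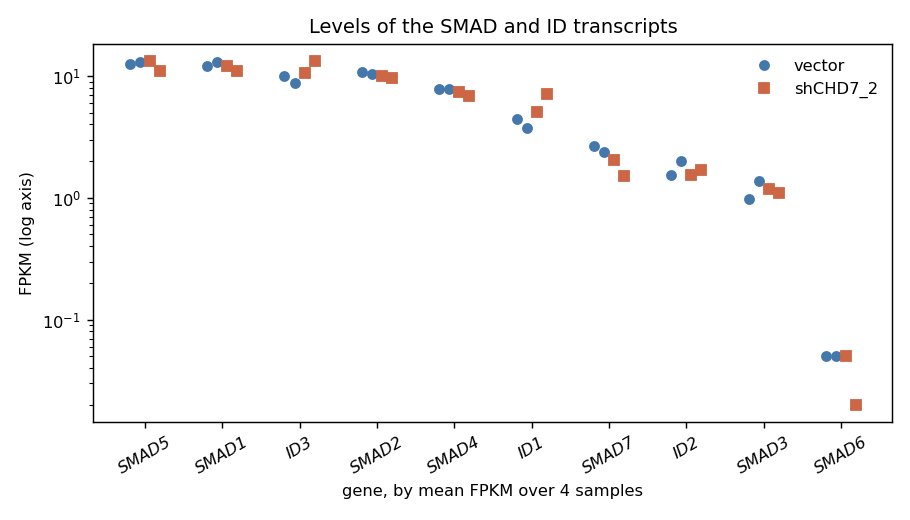
FPKM (log axis) of each member in each of the 4 samples, with circles for vector and squares for shCHD7_2, ordered by the mean over the samples. SMAD5, SMAD1, ID3 and SMAD2 sit near 10 FPKM, SMAD3 near 1 FPKM and SMAD6 at 0.05 FPKM or below.

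After CHD7 knockdown, none of the members passed the test for a difference in transcript level (adjusted p under 0.05 over the 11955 genes tested). The estimates ran in both directions. SMAD7 was the lowest against vector, at 0.681-fold, and ID1 and ID3 were the highest, at 1.43-fold and 1.24-fold, while SMAD1 to SMAD5 were between 0.881-fold and 0.935-fold. In bulk samples of 1 cell line such as these, a change in part of the cells and a change in every cell cannot be told apart. Of the 10 members, 9 had enough counts to be tested, and 0 of 9 passed with edgeR, against 11.5% of all genes tested (4.94% higher and 6.54% lower in shCHD7_2). With DESeq2, 0 of the 9 passed, against 6.69% of all genes. In limma on FPKM, 1 of the 9 passed, against 10.4% of all genes with a pseudocount of 1 and 10.3% with 0.1, and without shCHD7_2 replicate 1, 3 of the 9 passed, against 14.1% of all genes. None reached an adjusted p under 0.05 together with a 1.5-fold change, against 2.88% of all genes. At an unadjusted p under 0.05, 3 of the 9 differed (33.3%), against 25.4% of all genes, namely SMAD4 and SMAD7 on the lower side and ID1 on the higher side. In 6 of the 9 (66.7%) the samples of the groups did not overlap in scaled counts, against 53.7% of all genes. The median log2 fold change of the 9 was -0.14, and that of all genes tested was 0.00.

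Among the receptor-regulated SMADs of the BMP branch, SMAD1 (chromosome 4, 145481194 to 145558079, plus strand) had 461 and 480 counts in vector and 436 and 418 in shCHD7_2. Both shCHD7_2 samples were below both vector samples in scaled counts, with a log2 fold change of -0.17 (95% interval -0.37 to 0.03, adjusted p = 0.287). In FPKM the groups overlapped, at 11.98 and 13.03 in vector and 12.03 and 11.05 in shCHD7_2. SMAD5 (chromosome 5, 136132845 to 136188747, plus strand) had 1329 and 1415 counts in vector and 1391 and 1162 in shCHD7_2. Here 1 shCHD7_2 sample lay between the vector samples and only replicate 2 lay below them (log2 fold change -0.14, 95% interval -0.32 to 0.05, adjusted p = 0.376). The value was -0.014 without shCHD7_2 replicate 2 (adjusted p = 0.958) and -0.27 without shCHD7_2 replicate 1 (adjusted p = 0.0578). SMAD9, the third SMAD of this branch and not one of the 10, had 509 and 609 counts in vector and 545 and 476 in shCHD7_2, so that the groups overlapped (log2 fold change -0.16, adjusted p = 0.353). The FPKM of SMAD1, SMAD5 and SMAD9 summed to 30.5 and 33.2 in vector and to 31.7 and 27.6 in shCHD7_2, which also overlapped.

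In the TGF-beta branch, SMAD2 (chromosome 18, 47808957 to 47931146, minus strand) had 1709 and 1699 counts in vector and 1594 and 1558 in shCHD7_2. The groups did not overlap, and the log2 fold change was -0.14 (95% interval -0.31 to 0.02, adjusted p = 0.273). SMAD3 (chromosome 15, 67063763 to 67195195, plus strand), a main DNA-binding effector of TGF-beta, had 90 and 131 counts in vector and 110 and 101 in shCHD7_2. Both shCHD7_2 samples lay between the vector samples, and the log2 fold change of -0.097 (95% interval -0.48 to 0.28, adjusted p = 0.790) turned to 0.19 without vector replicate 2.

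SMAD4 (chromosome 18, 51028394 to 51085045, plus strand), the partner that both branches share, had 1062 and 1083 counts in vector and 993 and 937 in shCHD7_2. The vector samples were close together at 68.5 ± 0.136 CPM (counts scaled to library size with TMM factors, mean ± SD, n = 2), and the shCHD7_2 samples were lower at 60.3 ± 2.27 CPM (SD, n = 2). The log2 fold change of -0.18 (95% interval -0.36 to -0.0064) did not pass after adjustment over all genes (adjusted p = 0.179). SMAD2 and SMAD4 kept nearly the same ratio of counts within each library, 1.61 and 1.57 in vector and 1.61 and 1.66 in shCHD7_2.

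For SMAD1 to SMAD5, the 95% intervals of the fold change lay inside a 1.5-fold change in either direction. They ran from 0.772 to 1.02 for SMAD1, from 0.807 to 1.02 for SMAD2, from 0.719 to 1.22 for SMAD3, from 0.779 to 0.996 for SMAD4 and from 0.799 to 1.04 for SMAD5. Differences within these intervals were not resolved with 2 samples in each group, and an adjusted p above the threshold does not show that the levels were equal.

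**Figure D2:**
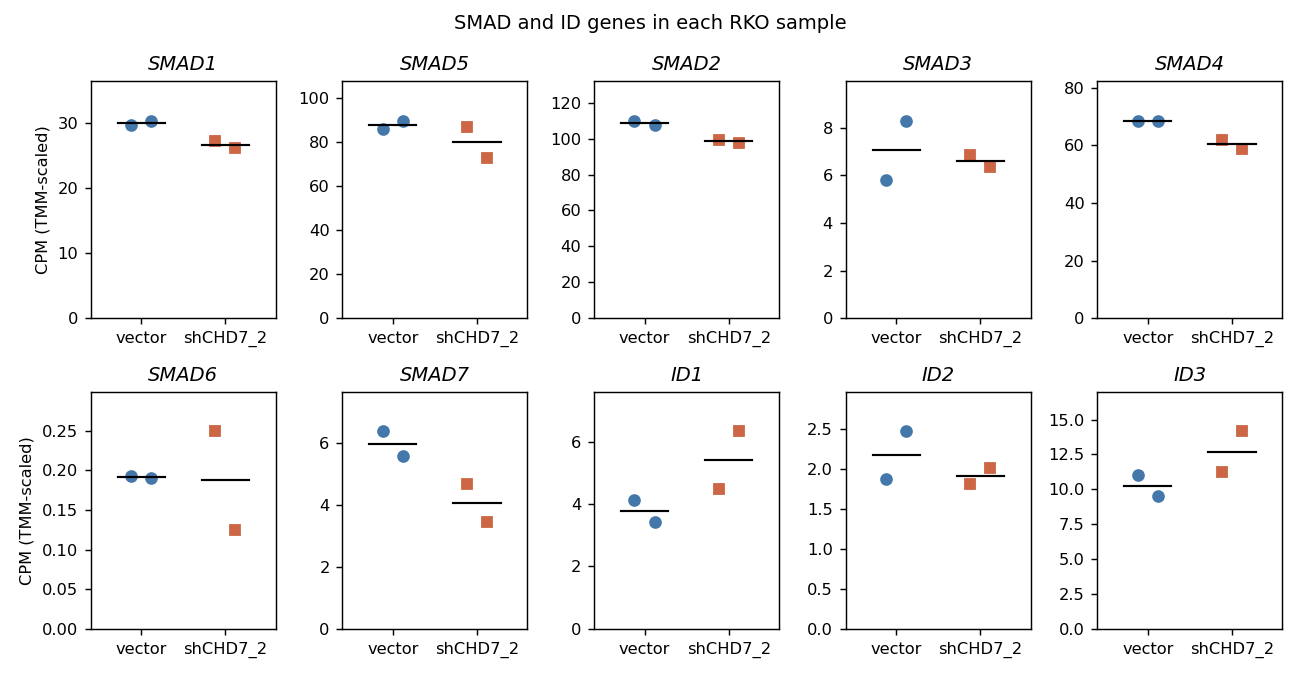
CPM after TMM scaling of each member in the 4 samples (points, circles for vector and squares for shCHD7_2) with the mean of each group (line), and a vertical axis from 0 in each panel. SMAD7 averages 5.98 CPM in vector and 4.06 CPM in shCHD7_2, ID1 averages 3.77 and 5.41 CPM, while the points of SMAD3, SMAD5 and ID2 overlap between the groups.

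Of the inhibitory SMADs, SMAD7 (chromosome 18, 48919853 to 48952052, minus strand) had 99 and 88 counts in vector and 75 and 55 in shCHD7_2. Both shCHD7_2 samples were below both vector samples, and the lowest was replicate 2. In CPM, SMAD7 was at 5.98 ± 0.568 in vector and 4.06 ± 0.870 in shCHD7_2 (mean ± SD, n = 2 each), a log2 fold change of -0.56 (standard error 0.20, 95% interval -0.97 to -0.14, adjusted p = 0.0742). The exact Poisson 95% interval of the counts, which covers counting error only, was 80.5 to 120.5 in vector replicate 1 and 41.4 to 71.6 in shCHD7_2 replicate 2. Without shCHD7_2 replicate 1, SMAD7 passed the test (log2 fold change -0.80, adjusted p = 0.017), and without shCHD7_2 replicate 2 the log2 fold change was -0.35 (adjusted p = 0.403).

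SMAD6 (chromosome 15, 66702228 to 66782848, plus strand), the inhibitory SMAD that acts mainly on BMP signals, had 3 and 3 counts in vector and 4 and 2 in shCHD7_2. These counts were too few to be tested. The Poisson 95% interval of a count of 3 was 0.619 to 8.77, so that a difference was not detectable at this depth. The sum of SMAD6 and SMAD7 was 2.7 and 2.44 FPKM in vector and 2.08 and 1.53 FPKM in shCHD7_2, nearly all of it SMAD7.

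ID1 (chromosome 20, 31605283 to 31606515, plus strand) had 64 and 54 counts in vector and 72 and 101 in shCHD7_2. Both shCHD7_2 samples were above both vector samples, with replicate 1 close to the vector range and replicate 2 well above it. The means were 3.77 ± 0.496 CPM in vector and 5.41 ± 1.30 CPM in shCHD7_2 (SD, n = 2 each), and the log2 fold change was 0.52 (standard error 0.21, 95% interval 0.083 to 0.96, adjusted p = 0.119). ID1 did not pass in DESeq2 (adjusted p = 0.455), in edgeR without a count filter (0.299) or with a replicate block (0.182), or in limma without a filter (0.258). It passed the test in limma on log2(FPKM + 1) limited to genes that reached 1 FPKM on average (adjusted p = 0.04), where the log2 fold change on that scale was 0.47, and with a pseudocount of 0.1 (adjusted p = 0.042). It also passed without shCHD7_2 replicate 1 (log2 fold change 0.74, adjusted p = 0.0195), whereas without shCHD7_2 replicate 2 the log2 fold change was 0.25 (adjusted p = 0.637).

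ID3 (chromosome 1, 23557918 to 23559794, minus strand) was the most abundant ID transcript in each sample and had 171 and 150 counts in vector and 180 and 226 in shCHD7_2. The order of the samples was the same as for ID1, with vector replicate 2 lowest and shCHD7_2 replicate 2 highest. Its log2 fold change was 0.31 (95% interval -0.0044 to 0.62, adjusted p = 0.204), which became 0.46 without shCHD7_2 replicate 1 (adjusted p = 0.0472) and 0.13 without shCHD7_2 replicate 2 (adjusted p = 0.737). ID2 (chromosome 2, 8678845 to 8684453, plus strand) had 29 and 39 counts in vector and 29 and 32 in shCHD7_2. The groups overlapped for ID2, and its 95% interval of -0.76 to 0.38 around a log2 fold change of -0.19 (adjusted p = 0.725) was the widest of the 9.

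The FPKM of ID1, ID2 and ID3 summed to 16.05 and 14.4 in vector and to 17.3 and 22.0 in shCHD7_2. Ratios of counts within a library do not depend on the scaling between libraries, and were chosen here after the values were seen. The ratio of ID1 to SMAD7 counts was 0.647 and 0.614 in vector and 0.96 and 1.84 in shCHD7_2, and that of ID3 to SMAD7 counts was 1.73 and 1.71 in vector and 2.4 and 4.11 in shCHD7_2. In both ratios the vector samples were close together and the shCHD7_2 samples were above them and far apart. The ratio of ID3 to ID1 counts varied less, from 2.24 to 2.78. For SMAD7, ID1 and ID3, shCHD7_2 replicate 2 lay farther from vector than replicate 1. The CHD7 count was also the lower of the pair in replicate 2 (800 against 890), but with 2 samples a link to the depth of the knockdown was not tested. The part of this library in the results beyond the values without it was not tested.

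**Figure D3:**
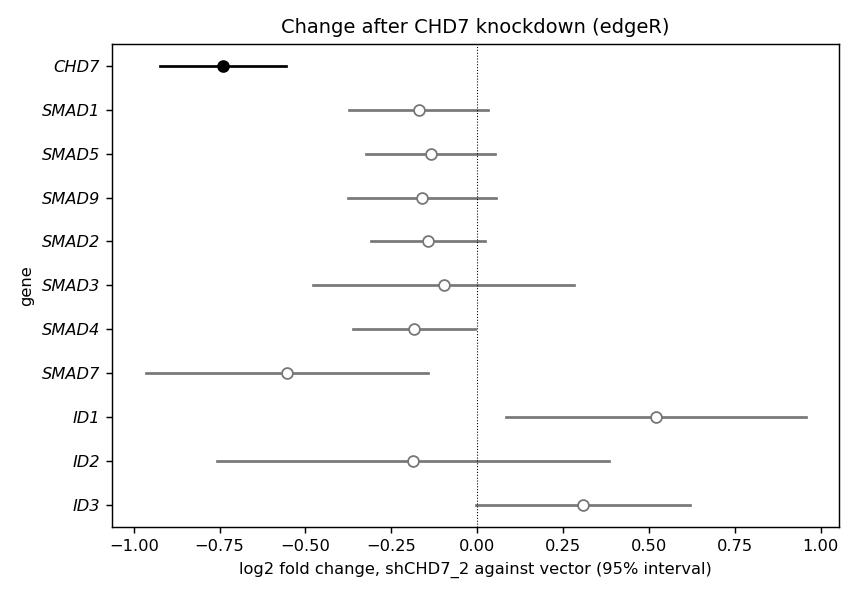
Log2 fold change of shCHD7_2 against vector from edgeR (points) with 95% intervals (lines) for CHD7, for the 9 members tested and for SMAD9. The filled point has an adjusted p under 0.05. CHD7 lies at -0.74, SMAD7 at -0.56 and ID1 at 0.52, and the intervals of SMAD1, SMAD2, SMAD3, SMAD5, SMAD9, ID2 and ID3 include 0.

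Annotated transcripts overlap several of these genes in GENCODE 29 on GRCh38. SMAD1 is overlapped on the opposite strand by SMAD1-AS1 and SMAD1-AS2, SMAD5 by SMAD5-AS1, ID2 by ID2-AS1, and SMAD2 and SMAD3 by antisense genes without a name. As the strand setting of the counting is not given in the sources used here, reads of a gene and its antisense partner cannot be told apart. SMAD4 shares 29751 bases with a protein-coding gene model on its own strand, AC091551.1. No gene model of this annotation overlapped SMAD7, ID1 or ID3.

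The E proteins TCF3 and TCF12, which the ID proteins bind, were measured beside them. TCF3 had 1544 and 1439 counts in vector and 1480 and 1606 in shCHD7_2 (log2 fold change 0.02, adjusted p = 0.926), and the groups overlapped. TCF12 had 1996 and 2172 counts in vector and 1965 and 1757 in shCHD7_2. Both shCHD7_2 samples were below both vector samples for TCF12 (log2 fold change -0.19, adjusted p = 0.138), and it passed without shCHD7_2 replicate 1 (log2 fold change -0.28, adjusted p = 0.0314), while the value was -0.12 without shCHD7_2 replicate 2 (adjusted p = 0.501). No row with the symbol TCF4 or ID4 was among the 15357 genes, so neither was tested.

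Upstream of the SMADs, none of the ligands tested passed. TGFB1, the most abundant TGF-beta ligand, had 1961 and 1690 counts in vector and 1534 and 1695 in shCHD7_2 (log2 fold change -0.21, adjusted p = 0.144). After scaling both shCHD7_2 samples were below both vector samples, by little for 1 pair (107.0 against 106.2 CPM). In FPKM the groups overlapped, with 46.42 in vector replicate 2 and 46.64 in shCHD7_2 replicate 2. It passed without shCHD7_2 replicate 2 (log2 fold change -0.29, adjusted p = 0.0382), and its log2 fold change was -0.086 without vector replicate 1 (adjusted p = 0.779). Of 15 TGF-beta and activin ligands listed, 3 were tested and 0 passed, with a median log2 fold change of 0.02. Of 15 BMP ligands, 3 were tested and 0 passed, with a median of 0.33. This median rests on few genes at low levels, as only 1 of the 3 reached a mean of 1 FPKM. BMP8B was the most abundant of them at 2.92 to 4.03 FPKM, and its log2 fold change was -0.23 in counts and 0.02 in limma on log2(FPKM + 1) (adjusted p = 0.374 and 0.932).

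Of 12 receptors and co-receptors tested, 1 fell and 1 rose, with a median log2 fold change of -0.05. For this and the lists below, the values over all genes tested were 6.54% lower, 4.94% higher and a median of 0.00. TGFBR3 (betaglycan), a co-receptor that presents TGF-beta to its receptors, fell from 189 and 163 counts in vector to 115 and 107 in shCHD7_2 (log2 fold change -0.70, 95% interval -1.02 to -0.37, adjusted p = 0.00432), and its adjusted p was 0.068 without vector replicate 1 and 0.0651 in limma on log2(FPKM + 1). ACVR1B, an activin receptor that phosphorylates SMAD2 and SMAD3, rose from 680 and 777 counts to 955 and 900 (log2 fold change 0.32, adjusted p = 0.0239), with an adjusted p of 0.317 without vector replicate 1, 0.0728 without shCHD7_2 replicate 1 and 0.0826 in DESeq2. TGFBR2, the TGF-beta receptor gene that is often inactivated in microsatellite-unstable colorectal cancer, had 453 and 437 counts in vector and 474 and 372 in shCHD7_2, and the groups overlapped (adjusted p = 0.607). BAMBI, a pseudoreceptor that damps the signal and is itself a target of it, had 73 and 89 counts in vector and 81 and 86 in shCHD7_2 (log2 fold change 0.01, adjusted p = 0.977). The most abundant gene of the list was RGMB, a BMP co-receptor, at 90.07 to 98.45 FPKM (log2 fold change 0.01, adjusted p = 0.967).

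Of 8 extracellular inhibitors and latent binding proteins tested, 2 fell and 0 rose, with a median log2 fold change of -0.01. TWSG1, a secreted BMP-binding protein, had 2250 and 2342 counts in vector and 2053 and 1797 in shCHD7_2 (log2 fold change -0.29, adjusted p = 0.0247), and LTBP2, a matrix protein of the latent TGF-beta binding family, had 4519 and 4381 counts against 3824 and 3877 (log2 fold change -0.24, adjusted p = 0.0345). For both genes the call rested on the libraries: the adjusted p of TWSG1 was 0.118 without vector replicate 1, 0.239 without vector replicate 2 and 0.184 without shCHD7_2 replicate 2, and that of LTBP2 was 0.335, 0.194 and, without shCHD7_2 replicate 1, 0.0504. Both also missed the threshold when library totals replaced TMM (adjusted p = 0.0588 and 0.0817).

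Of 25 SMAD regulators and co-factors tested, 1 fell and 0 rose, with a median log2 fold change of -0.01. The gene that fell was SMURF2, a ubiquitin ligase that targets SMADs and, together with SMAD7, the TGF-beta receptor. SMURF2 had 13795 and 14470 counts in vector and 10851 and 9791 in shCHD7_2, or 902.6 ± 19.8 CPM against 645.2 ± 44.6 CPM (SD, n = 2 each). The groups were far apart relative to the spread within them (log2 fold change -0.48, 95% interval -0.63 to -0.34, adjusted p = 6.97e-05), and SMURF2 was the most abundant gene of its list at 124.0 to 189.3 FPKM.

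Of the 9 TGF-beta target genes tested, 3 fell and 1 rose, and the median log2 fold change of the list was -0.28. Over all genes tested, 6.54% fell and 4.94% rose, with a median of 0.00. The list is small and was chosen with earlier results of these data known, and whether it differs from other genes as a set was not tested. CCN2 (listed under its older symbol CTGF), a secreted matricellular protein, fell from 194 and 192 counts in vector to 94 and 83 in shCHD7_2, or from 12.3 ± 0.237 CPM to 5.53 ± 0.467 CPM (SD, n = 2 each), with a log2 fold change of -1.15 (95% interval -1.48 to -0.83, adjusted p = 2.3e-05). TAGLN, an actin-binding protein of smooth muscle and mesenchymal cells, fell from 10.7 ± 0.687 CPM to 6.47 ± 0.110 CPM (SD, n = 2 each, log2 fold change -0.72, adjusted p = 0.00322). LTBP2, also on this list, was the third gene that fell. BHLHE40, a transcriptional repressor that also answers hypoxia and the clock, rose from 1940 and 1906 counts to 2463 and 2448 (log2 fold change 0.32, adjusted p = 0.00752), with an adjusted p of 0.0699 without vector replicate 1 and 0.181 without vector replicate 2. SMAD7 is a member of this list as well.

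Of the 9 BMP target genes tested, 5 of which are SMAD or ID genes, 1 fell and 0 rose, with a median log2 fold change of -0.02. HEY1, a repressor of the hairy family that Notch signals also induce, fell from 126 and 143 counts in vector to 89 and 81 in shCHD7_2 (log2 fold change -0.69, 95% interval -1.04 to -0.34, adjusted p = 0.00854). Its adjusted p was 0.1 without vector replicate 2 and 0.0996 in DESeq2. Over all 7 pathway lists, 61 genes other than the members were tested, of which 7 fell and 2 rose (14.8%), beside 11.5% of all genes tested. With 1 vector replicate left out, fewer of these 61 genes passed, and so did fewer of all genes tested, whichever of the pair it was.

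**Figure D4:**
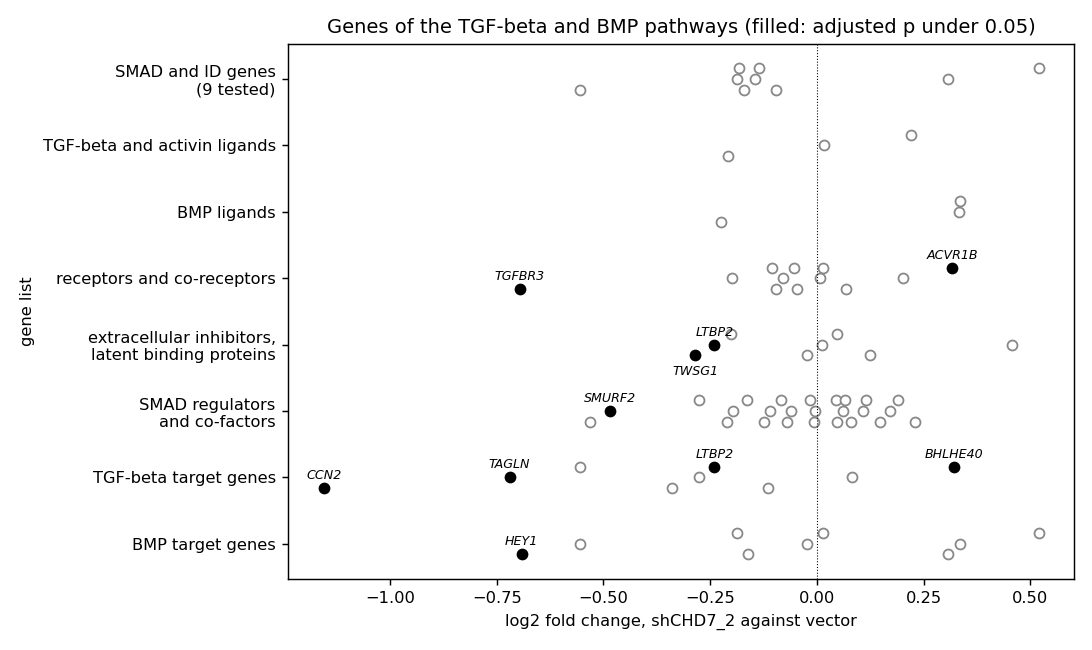
Log2 fold change of shCHD7_2 against vector for each gene tested in the members and in the 7 pathway lists (1 point per gene, points spread vertically for legibility, and genes on 2 lists drawn in both). Filled points have an adjusted p under 0.05 over all genes, and CCN2 lies lowest at -1.15.

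In an earlier search of these same data, 3 words of 7 bases (AGCTATT and GAAGCTA as well as GCTATTA) were picked because 3′ UTRs that held them were more often those of genes lower in shCHD7_2, so that their presence is a description and no independent evidence. At least 1 of the words was in the longest annotated 3′ UTR of 22.4% of the genes tested, of 54.8% of those that passed as lower and of 13.6% of those that passed as higher. SMAD7 held AGCTATT and GCTATTA in a 3′ UTR of 1519 bases, and 19.7% of the genes tested with a 3′ UTR within 20% of that length held any of the words. SMAD5 held all 3 words, SMAD4 held AGCTATT and SMAD3 held GCTATTA, in 3′ UTRs of 5254, 6578 and 4659 bases. At these lengths a word is common, and 57.4%, 63.8% and 52.7% of the genes tested whose 3′ UTR was within 20% of the same length held any of them. SMAD2 held 2 of the words in an unusually long annotated 3′ UTR of 32870 bases. ID1, ID2, ID3, SMAD1 and SMAD6 held none, in shorter 3′ UTRs of 145 (SMAD1) to 1313 bases (SMAD6), where 2.14% to 17% of genes of similar length held any. Of the pathway genes that passed, TGFBR3 held AGCTATT and GCTATTA in a 3′ UTR of 3394 bases, where 38.6% of genes of similar length held any. The other 8 held none, and at their lengths 4.45% (TAGLN) to 34.7% (ACVR1B) of genes held any, so that holding none was usual. For SMURF2 the longest annotated 3′ UTR found had only 483 bases. The part of these words in the differences was not tested.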

How the data were processed

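Polyadenylated RNA of 2 vector and 2 shCHD7_2 samples of RKO cells was sequenced, and groups and replicate numbers were taken from the sample labels. The authors deposited estimated counts per gene without normalization, and FPKM values normalized for transcript length and depth. The submitters' processing notes name Bowtie2, RSEM, DESeq2 and hg38 without versions, and the gene annotation and strand setting are not given in the sources used here. RSEM divides reads between similar genes, and 13.6% to 14.7% of the estimated counts in a sample were not whole.

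Estimated counts were rounded, genes were filtered with filterByExpr and libraries scaled by TMM (factors 0.983 to 1.02), and 11955 of 15357 genes entered the quasi-likelihood test of edgeR 4.0.16 in R 4.3.3, with Benjamini-Hochberg adjustment over all of them and no covariate. Genes passed when the adjusted p was under 0.05, and those that also reached 1.5-fold were counted. The script was tested on simulated data. Alternatives were DESeq2 size factors, library totals, DESeq2 1.42.0, 2 other filters on low counts, a replicate block, limma 3.58.1 on the log2 of FPKM plus 1 or plus 0.1, with and without a filter at a mean of 1, and leaving out each sample, where the lone sample was assumed to vary like the other group.

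The members and gene lists were chosen with earlier results of these data known. Named genes are the members, CHD7, SMAD9, TCF3, TCF12, TGFBR2, BAMBI, the genes that passed in each list (at most 6) and the most abundant gene of a list. The value of 1 gene under this rule is not reported here. Gene positions, overlaps and 3′ UTRs are from GENCODE 29 on GRCh38, and promoters from RefSeq on GRCh38.p14. Gene names on the lists were matched to the table by symbol, and CCN2 through its RefSeq synonym.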

Additional observations from a re-analysis of the deposited data

How the results depend on the processing

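None of the 9 members tested passed under DESeq2 size factors, library totals, DESeq2, either other count filter or limma without a filter. With limma limited to genes that reached 1 FPKM on average, 1 member (ID1) of 9 passed with either pseudocount, beside 10.4% and 10.3% of all genes. Leaving out 1 sample gave 0 to 3 members, the 3 being SMAD7, ID1 and ID3 without shCHD7_2 replicate 1, 610 to 1702 of all genes (main value 1373) and 5 to 10 pathway genes (main value 9). Over all genes, 800 passed in DESeq2, 197 without a count filter and 24 in limma without a filter; of the pathway genes, 2 passed without a count filter and 0 in limma without a filter, where CHD7 also missed the threshold (adjusted p = 0.104). Log2 fold changes changed sign between samples left out for SMAD3 (-0.33 to 0.19), ID2 (-0.374 to 0.0290), TCF3 (-0.0460 to 0.0802), TGFBR2 (-0.291 to 0.0565), BAMBI (-0.11 to 0.15) and RGMB (-0.0413 to 0.0553), and in limma for BMP8B (0.0223 with a pseudocount of 1, with or without a filter, and 0.0253 with 0.1). The cause was not tested. The median of all genes moved by at most 0.04 with the scaling of counts.

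Same-numbered samples deviated from their group means with a correlation of -0.198 over 11955 genes. Over the 8765 most abundant ones (log2 CPM over 4) it was -0.504. The labels do not say whether a shared number marks a shared culture or batch, and with 2 samples in each group these correlations cannot decide it. With a replicate block, 0 members, 5 pathway genes and 755 of all genes passed. A block with the numbers crossed, added after the data were seen, gave 5 members, 20 pathway genes and 3751 of all genes. SMAD6, at 2 to 4 counts, was too low to be tested.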
